A study of Mus musculus with 12 samples.

Results

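The mitochondrial ribosomal protein genes are the nuclear genes whose mouse symbols begin with Mrpl (large subunit) or Mrps (small subunit) followed by a digit. The rule found 78 of the 15391 genes in the deposited count table, 49 Mrpl and 29 Mrps genes, after 1 pseudogene, Mrpl23-ps1, had been left out. Each of the 78 had counts in both IP groups and in both input groups. An expression filter kept 77 of them among 8773 genes, and Mrps2 was removed.

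Cultured adult dorsal root ganglion neurons of mice with the genotype RPL22HA+/+;Advillin-Cre+ were used throughout. In these mice an HA tag on the cytosolic ribosomal protein Rpl22 is switched on by Cre in Advillin-expressing sensory neurons, so that an HA antibody pulls down cytosolic ribosomes of those neurons with their mRNA. All mice had been preconditioned by a sciatic nerve injury before culture, so no group lacks the injury. The 4 groups were the HA immunoprecipitate (IP) and the input RNA of cultures infected with a control adeno-associated virus (AAV-Control in the IP titles, AAV-shControl in the input titles) or with AAV-shLarp1, a virus carrying a short hairpin RNA against Larp1. The tag marks only Cre-expressing neurons, whereas input RNA comes from every cell in the dish, and per the labels the extraction text speaks of freshly collected ganglia rather than of cultures.

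Mitochondria translate the respiratory chain subunits that their own genome encodes on a separate ribosome. Its rRNAs come from mitochondrial DNA, but all of its proteins are encoded in the nucleus, made on cytosolic ribosomes and imported. Some of these proteins descend from bacterial ribosomal proteins, and others are found only in mitochondria. Larp1 binds the cap and the terminal oligopyrimidine (TOP) tract, a C followed by a run of C or T at the very start of mRNAs such as those for cytosolic ribosomal proteins, and the comparison asks what its loss does to ribosome-bound mRNA.

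The start sites are shown first, because a TOP tract is defined by the first base of the mRNA. RefSeq start sites (GRCm38.p6) matched 69 of the 78 genes. A tract was counted where the annotated first base is C and the next 4 or more bases are C or T. None of the 69 mitochondrial ribosomal protein genes had one at the annotated start, against 14 of 59 cytosolic ribosomal protein genes (23.7%), 4 of 63 nuclear genes of oxidative phosphorylation (6.35%) and 3.24% of the 6274 tested genes with a promoter. Among all 27025 genes of the promoter table the share was 3.01%. When the tract could begin up to 10 bases to either side of the annotated start, 31 of the 69 genes (44.9%) had one, against 62.7% of the cytosolic ribosomal protein genes, 38.1% of the oxidative phosphorylation genes and 37.4% of tested genes. An annotated start can differ from the start used in these neurons, so these letters describe the annotation only. The windows below run from 10 bases before to 20 bases from the start onward, 5′ to 3′ on the gene's strand. They show Mrpl1, the gene called lower in the IP, and members with the most counts in the control IP, followed by cytosolic ribosomal protein genes with a tract for contrast. Capitals mark the annotated first base or, where that base is C, the run of C and T that it begins.
Mrpl1, chr5:96210105-96210134, plus strand: atttccgtgcAgttgaaacccgggacccac
Mrpl33, chr5:31613941-31613970, plus strand: gcatgccccgGaagtagtcgttgagctctt
Mrps21, chr3:95871495-95871524, minus strand: ctcccgtcgcGggactccgtagcttccgct
Mrpl52, chr14:54426899-54426928, plus strand: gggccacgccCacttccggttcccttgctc
Mrps33, chr6:39810917-39810946, minus strand: cctctctcctGctctctggagctgggaagc
Mrps14, chr1:160195205-160195234, plus strand: cctccacagaAcctgtttccggtgttgtac
Mrpl20, chr4:155802868-155802897, plus strand: ttcggaagagCTgtcagtgctcttaaccct
Rpl38, chr11:114668570-114668599, plus strand: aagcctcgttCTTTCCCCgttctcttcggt
Rpl35, chr2:39005112-39005141, minus strand: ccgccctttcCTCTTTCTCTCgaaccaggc
Rpl35a, chr16:33056472-33056501, plus strand: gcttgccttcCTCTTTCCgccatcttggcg
Rps15a, chr7:118116128-118116157, minus strand: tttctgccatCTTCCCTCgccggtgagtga
The cytosolic genes begin with tracts of 8 to 11 bases, whereas Mrpl20 begins with 2 such bases and Mrpl52 with 1.

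Promoter motifs were searched on both strands from 250 bases before to 50 bases after the start. The NRF1 motif (GCGC, any 2 bases, then GCGC again), bound by a regulator of nuclear genes for mitochondria, was found in 14 of the 69 genes (20.3%) and in 16.5% of tested genes. The ETS core CCGGAAG was found in 26 of 69 (37.7%) against 22.2%, and the YY1 motif (AAGAT directly followed by GGCGG) in 5 of 69 (7.25%) against 2.74%. At least 1 of the 3 was found in 39 of 69 genes (56.5%) against 36.6% of tested genes and 16.1% of the whole promoter table, and the motifs were searched independently of any overlap. In the 2 gene groups compared, the ETS core was found in 40.7% of 59 cytosolic ribosomal protein genes and 25.4% of 63 oxidative phosphorylation genes, and any of the 3 motifs in 52.5% and 52.4%. In the same order, the NRF1 motif was found in 11.9% and 28.6% and the YY1 motif in 3.39% and 7.94%. The GC box GGGCGG was found in 49.3% of members against 69.8% of tested genes. Among the members, NRF1 matches were present in 11 of 43 large-subunit genes (25.6%) and 3 of 26 small-subunit genes (11.5%). The other motifs were less common in the large-subunit genes. The ETS core was found in 34.9% of large-subunit and 42.3% of small-subunit genes, YY1 in 4.65% and 11.5%, and the GC box in 39.5% and 65.4%. A match is a run of letters and not a shown binding site.

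A head-to-head neighbour, a gene on the other strand that starts within 300 bp upstream, was annotated for 21 of 69 members (30.4%) and for 16.5% of tested genes. Mrpl46 and Mrps11, which encode a large-subunit and a small-subunit protein, start 42 bp apart. Their log2 ratios of shLarp1 to control were 0.09 and -0.04 in the IP. In the input they were 0.28 (23 counts with the control virus and 32 with shLarp1) and -0.68 (77 and 55 counts). The log2 ratios of IP to input with the control virus were 0.43 and -0.92, so the pair differed there. The 250 bases before the start of Mrps11, which also hold the start of Mrpl46, are printed with those of Mrps21 and Mrpl9 to show a shared promoter and matches to the NRF1 and YY1 motifs, which stand in capitals. A GC box match in Mrps11 is left in lower case.
Mrps11, chr7:78782881-78783130, plus strand: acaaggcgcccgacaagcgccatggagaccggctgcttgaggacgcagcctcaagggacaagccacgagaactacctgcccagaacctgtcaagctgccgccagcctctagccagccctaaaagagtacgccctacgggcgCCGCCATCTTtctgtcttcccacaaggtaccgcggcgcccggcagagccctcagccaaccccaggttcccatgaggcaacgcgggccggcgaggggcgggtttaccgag
Mrps21, chr3:95871515-95871764, minus strand: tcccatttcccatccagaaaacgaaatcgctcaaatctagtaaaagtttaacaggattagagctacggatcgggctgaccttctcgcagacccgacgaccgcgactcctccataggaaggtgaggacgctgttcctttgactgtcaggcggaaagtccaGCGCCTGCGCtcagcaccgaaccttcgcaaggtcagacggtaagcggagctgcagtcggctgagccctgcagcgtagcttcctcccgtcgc
Mrpl9, chr3:94443086-94443335, plus strand: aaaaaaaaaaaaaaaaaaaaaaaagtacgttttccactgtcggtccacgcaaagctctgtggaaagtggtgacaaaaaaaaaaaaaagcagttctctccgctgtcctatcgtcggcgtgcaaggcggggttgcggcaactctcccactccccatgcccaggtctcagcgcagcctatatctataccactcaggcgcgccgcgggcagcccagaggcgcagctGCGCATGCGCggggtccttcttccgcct
The capitals mark a YY1 match on the opposite strand in Mrps11, and NRF1 matches in Mrps21 and Mrpl9.

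**Figure D1:**
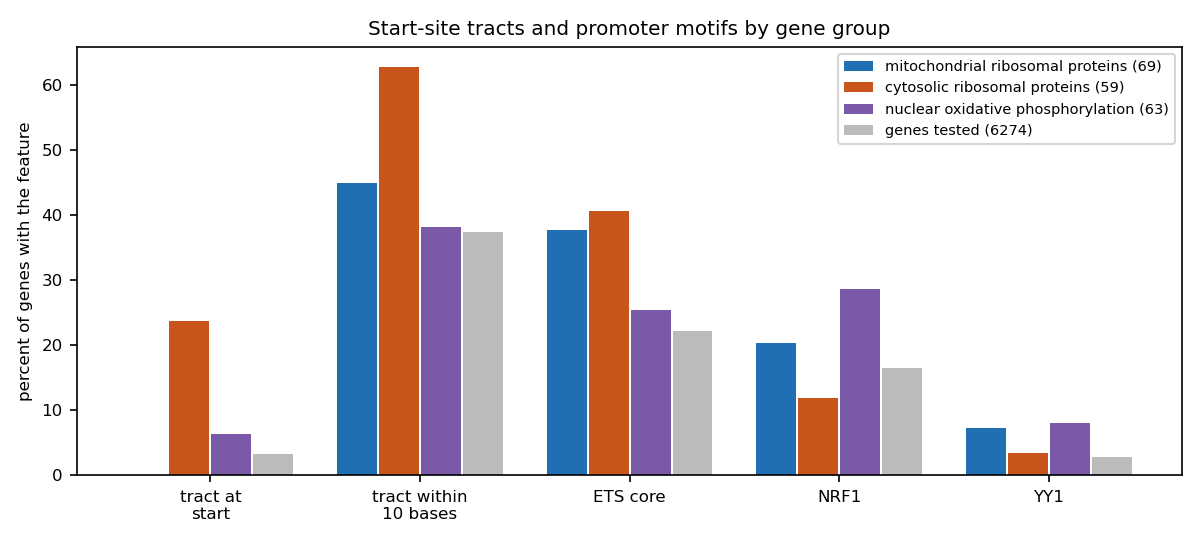
Percent of genes (y axis) with a start-site tract or a promoter motif (x axis) in 4 gene groups, with the number of genes that have a RefSeq promoter in brackets. The bar for mitochondrial ribosomal proteins is at 0 for a tract at the annotated start, where that for cytosolic ribosomal proteins is at 23.7%, and it reaches 37.7% for the ETS core.

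Each group has 3 columns of counts, with 3126591 to 3177552 counts a column in the IP and 564095 to 760140 in the input. The 3 columns of a group differed by little more than random parts of 1 library would, with median chi-square values of 1.46 to 1.53 between columns and of 1.38 to 1.41 between random parts. They were therefore summed and counted as 1 sample a group, so there is no replicate check between the viruses and no p-value is given for a gene. Nothing in the labels ties a column to a culture or an animal of its own. Each log2 ratio has a 95% interval that covers counting error only, and PCR reads without molecular identifiers are not independent molecules. The size rule for a call was an interval lying wholly beyond 1.5-fold. Larp1 had 147, 141 and 154 counts in the control IP and 55, 49 and 45 in the shLarp1 IP, a log2 ratio of -1.72 (-2.0 to -1.45). In the input it had 5, 7 and 6 counts and then 3, 3 and 2. The tagged gene Rpl22 was at -0.18 (-0.23 to -0.12) in the IP. Of 10 sensory neuron markers 8 were higher in IP than in input with either virus, against 23 percent of all genes with the control virus and 25.9 percent with shLarp1. Of 7 glial markers 1 was higher (S100b) and 1 lower (Fabp7) with the control virus, and 1 was higher and 3 lower with shLarp1, where 12.5 and 13.1 percent of all genes were lower.

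Summed over the 78 genes, the control IP held 97151 counts (1.04% of all counts) and the shLarp1 IP 103722 (1.09%). The control input held 16780 (0.991%) and the shLarp1 input 21687 (0.952%). Per gene the counts ran from 37 (Mrps2) to 8213 (Mrpl33) in the control IP, with a median of 716.5. In the control input they ran from 1 (Mrps30) to 3572 (Mrpl13), with a median of 74. These are counts per gene and not per length, so they do not rank the transcripts. The depth in the input limited single genes: the median width of the interval was 1.02 log2 units for shLarp1 against control in the input and 0.30 in the IP.

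**Figure D2:**
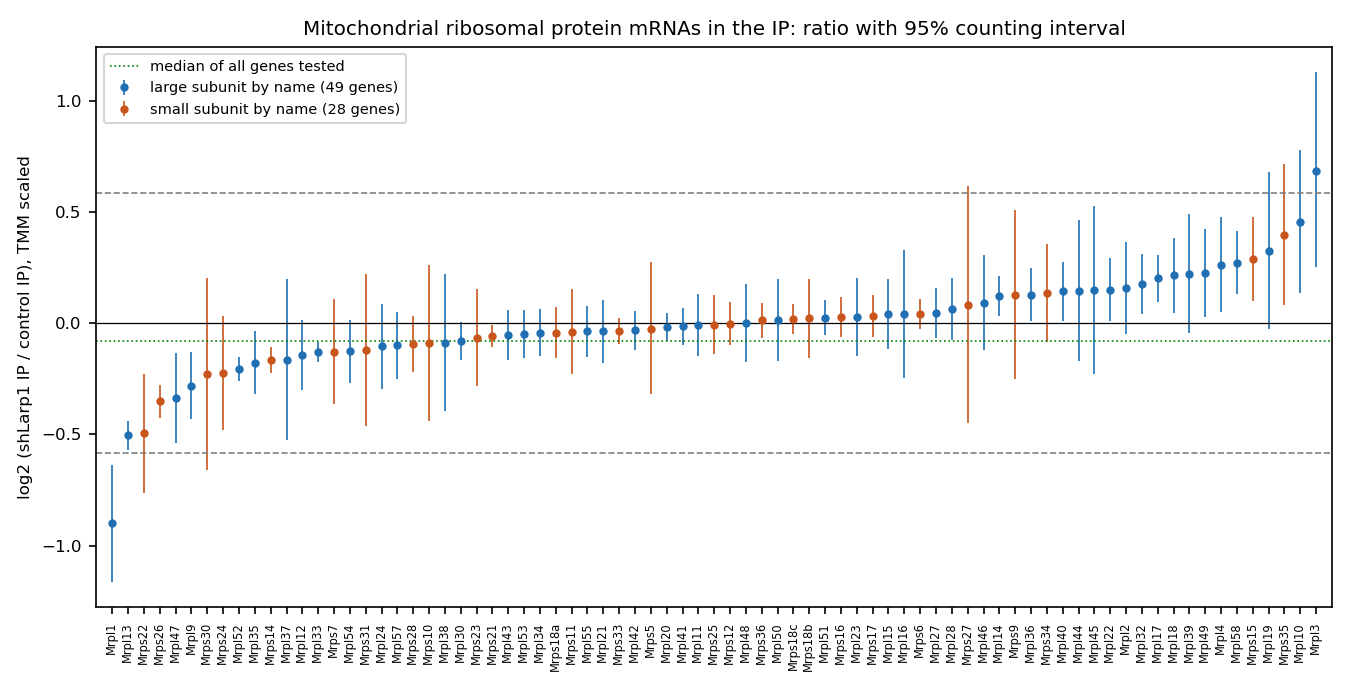
Log2 ratio of shLarp1 IP to control IP (y axis) for the 77 tested genes in order of the ratio (x axis), with 95% counting intervals; dashed lines mark 1.5-fold and the dotted line the median of all genes tested. Mrpl1, at -0.90, is the gene whose interval lies wholly beyond the lower dashed line, and no gene lies wholly beyond the upper one.

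In the IP, the mRNAs of the mitochondrial ribosome differed little between the viruses. Of the 77 tested genes 0 were called higher and 1, Mrpl1, was called lower. Among all genes tested 5.12 percent were called, 0.719 percent higher and 4.4 percent lower. The intervals of 69 of the 77 genes lay wholly inside 1.5-fold in both directions. That holds for counting error under the TMM scaling only, and does not bound the difference between the samples. The same share of all genes tested is not given here, so the 69 cannot be set against it. The median log2 ratio was -0.01 for the members and -0.08 for all genes tested, and 55 of the 77 lay above the median of all genes. Summed over the members, the ratio was -0.06 (-0.07 to -0.05), a direction that turned with upper-quartile scaling (0.07), with scaling by total counts (0.07) and with TMM referred to a column of the control IP (0.01). The first 2 of these raised the all-gene median by 0.13. A change of scaling shifts every gene alike, so the members' median stays 0.07 above the all-gene median by construction.

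Mrpl1 encodes the protein of the mobile L1 stalk, next to the site where tRNAs leave the ribosome. It had 107, 103 and 112 counts in the control IP and 61, 71 and 60 in the shLarp1 IP. All columns with shLarp1 were below all control columns. The log2 ratio was -0.90 (-1.16 to -0.64), or 1.86-fold lower. The call was lost with upper-quartile scaling (-0.77), total counts (-0.77), or TMM referred to a control IP column (-0.83). It was also lost without control IP replicate 3 (-0.87), shLarp1 IP replicate 1 (-0.86) or 3 (-0.86), and without any 1 of the 6 input columns (-0.83), which moves the scaling alone.

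The largest values in the other direction belonged to genes with few counts. Mrpl3, a core large-subunit protein with a bacterial homolog, had 23, 24 and 23 counts in the control IP and 59, 33 and 33 in the shLarp1 IP. Its groups did not overlap, but 1 column with shLarp1 stood apart, and the log2 ratio of 0.68 (0.25 to 1.13) did not meet the size rule. Mrpl10, of the stalk that recruits translation factors, was at 0.45 (0.13 to 0.78), Mrps35 at 0.40 (0.08 to 0.72) and Mrpl19 at 0.33 (-0.03 to 0.68). At the low end, after Mrpl1, stood Mrpl13 at -0.50 (-0.57 to -0.44), Mrps22, a protein found only in mitochondrial ribosomes, at -0.49 (-0.76 to -0.23), and Mrps26 at -0.35 (-0.43 to -0.28). None of these 7 met the size rule.

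The genes with the most counts were measured most closely. Mrpl33 had 2742, 2767 and 2704 counts in the control IP and 2704, 2813 and 2828 in the shLarp1 IP, with overlapping columns and a log2 ratio of -0.13 (-0.17 to -0.09). Mrps21 had 2061, 2137 and 2143 counts and then 2266, 2157 and 2350, without overlap of the raw counts and with a log2 ratio of -0.06 (-0.11 to -0.01). Equal counts in both IPs correspond to a log2 ratio of -0.15, since the TMM scaling sets the shLarp1 IP larger. The remaining 5 of the 8 most counted genes outside those described were Mrpl52 at -0.21 (-0.26 to -0.15), Mrps33 at -0.03 (-0.09 to 0.02), Mrps14 at -0.17 (-0.22 to -0.11), Mrpl20 at -0.02 (-0.08 to 0.05) and Mrps18c at 0.02 (-0.05 to 0.09). All of these intervals lie well inside 1.5-fold.

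In the IP the share of each subunit was nearly the same with both viruses. The large-subunit genes held 58.8% (58.5 to 59.1) of the members' counts in the control IP and 58.6% (58.3 to 58.9) in the shLarp1 IP, with exact binomial intervals. The log2 ratio of the summed large-subunit counts minus that of the small-subunit counts was -0.01 (-0.04 to 0.02), and no scaling factor enters that difference. Large-subunit genes had a median of 0.02 and small-subunit genes of -0.03. Names do not always give the place in the ribosome: structures place Mrps30 and Mrps18a in the large subunit, and Mrps36 is now known as a component of the ketoglutarate dehydrogenase complex. In the IP these 3 stood at -0.23 (-0.66 to 0.20), -0.04 (-0.16 to 0.07) and 0.01 (-0.06 to 0.09). The 3 paralogs named for bacterial S18 were close to each other, with Mrps18b at 0.02 (-0.15 to 0.20) beside the values of Mrps18a and Mrps18c. By origin, the median was -0.00 for 45 genes with a bacterial homolog and -0.01 for 31 genes found only in mitochondria.

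**Figure D3:**
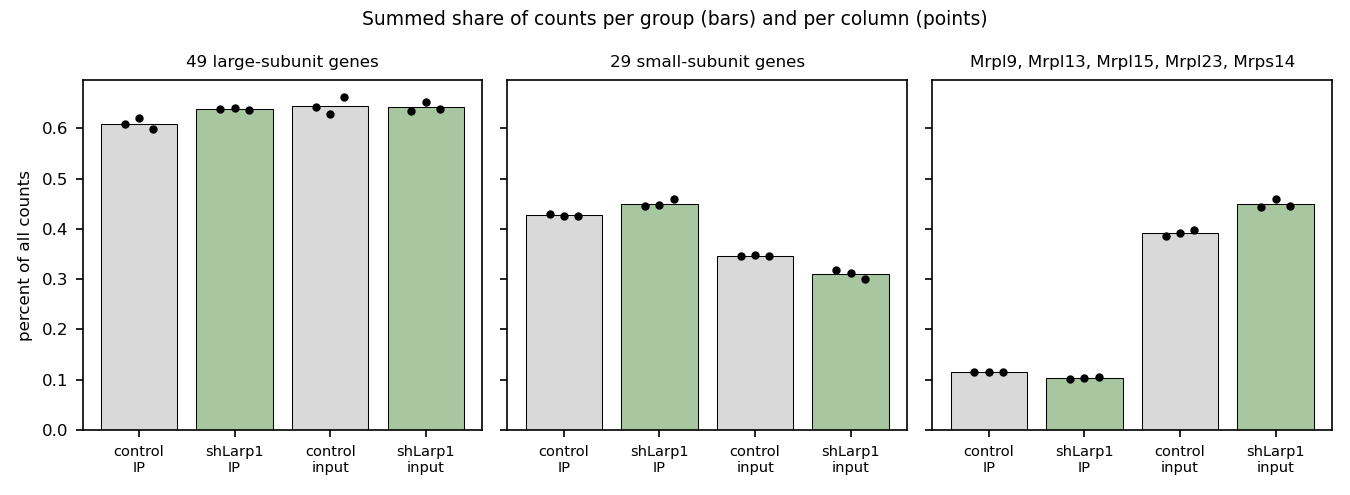
Percent of all counts (y axis) held by the large-subunit genes, the small-subunit genes and 5 genes with a low ratio of IP to input (panels), by group (x axis); bars are group sums and points the 3 columns. The large-subunit bars are close to each other in all groups, whereas the bar of the 5 genes in the shLarp1 input, at 0.449%, is above the control input, at 0.392%, and both are above the IP bars.

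In the input, 0 of the 77 genes were called, against 1.19 percent of all genes, 0.171 percent higher and 1.01 percent lower. Treating the columns as replicates, edgeR's quasi-likelihood test passed 14 members at an adjusted p under 0.05 (Benjamini-Hochberg over all genes). Of these 6 were higher and 8 lower, and 8.88 percent of all genes passed. DESeq2, which used its own size factors, passed 16 members, 14 higher and 2 lower. Its adjusted p covered 4690 genes, 68 members among them, and 19.4 percent of those genes passed. The direction of the members passing therefore differed between the tests. These tests see only the spread between columns that may be parts of 1 library. The intervals of 23 of 77 genes lay inside 1.5-fold, so for most genes the depth did not bound the difference within that size. The members' median was -0.11 and that of all genes -0.14, which becomes -0.20 with genes at 0 counts in a group set at the bound that 3 counts give. In bulk RNA, fewer cells of a type and less RNA per cell cannot be told apart.

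Mrpl1 had the highest input ratio among members with at least 30 counts, opposite to its place in the IP. It had 15, 11 and 12 counts in the control input and 34, 27 and 24 in the shLarp1 input. The groups did not overlap, and the log2 ratio was 0.96 (0.40 to 1.56), which among the scalings met the size rule with DESeq2 size factors (1.18) and with TMM referred to a control IP column (1.20). Mrpl13 had 1185, 1193 and 1194 counts and then 1949, 2019 and 1978, with a log2 ratio of 0.54 (0.48 to 0.60). It met the size rule with those same scalings (0.75 and 0.77) and with upper-quartile factors (0.68). Mrpl9 followed at 0.47 (0.29 to 0.64) and Mrps26 at 0.37 (0.18 to 0.56).

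The low end of the input held Mrpl47 at -1.23 (-2.0 to -0.49), Mrpl4 at -1.20 (-1.99 to -0.45), Mrps23 at -0.96 (-1.77 to -0.18) and Mrps5 at -0.85 (-1.93 to 0.18). Mrpl4, which lines the exit tunnel of the large subunit, had 16, 12 and 18 counts in the control input and 5, 9 and 9 in the shLarp1 input. Its columns did not overlap. With total counts as the scaling, Mrpl4 (-1.43) and Mrpl47 (-1.46) met the size rule. Equal counts in both inputs correspond to -0.20, and the scalings moved the median of all genes between shifts of -0.23 and 0.23.

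The summed input ratio of the members was 0.17 (0.14 to 0.20), and it was 0.38 with DESeq2 size factors, 0.32 with upper-quartile factors, 0.41 with TMM referred to a control IP column and -0.06 with total counts. Leaving out single columns gave 0.17 to 0.43, so the reported value lies at the lower end of that range. Large-subunit genes held 65.0% (64.3 to 65.7) of the members' counts in the control input and 67.4% (66.8 to 68) in the shLarp1 input, a difference in log2 ratios between subunits of 0.16 (0.09 to 0.22). Mrpl13 carried that difference: without it, large minus small was -0.02 (-0.09 to 0.04), and without all 5 genes with a low IP-to-input ratio, described further on, 0.02 (-0.06 to 0.10). By medians the order was also turned, with large-subunit genes at -0.15 and small-subunit genes at -0.09. The 10 sensory neuron markers summed to 0.152% of counts in the control input and 0.0715% in the shLarp1 input, from 2576 to 1630 counts. Uchl1 alone went from 1772 to 935, while 4 of the 10 had ratios above 0, among them Nefl (70 and 100 counts) and Nefm (53 and 61), and the median of the 10 was -0.16. The 7 glial markers summed to 0.0369% and 0.0326%. The 6 fibroblast markers summed to 73 and 74 counts, with Lum at 0 in the control input and Pdgfra at 0 in the shLarp1 input, and the 4 macrophage markers to 115 and 75. The part of these markers' cells in the input values was not tested.

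**Figure D4:**
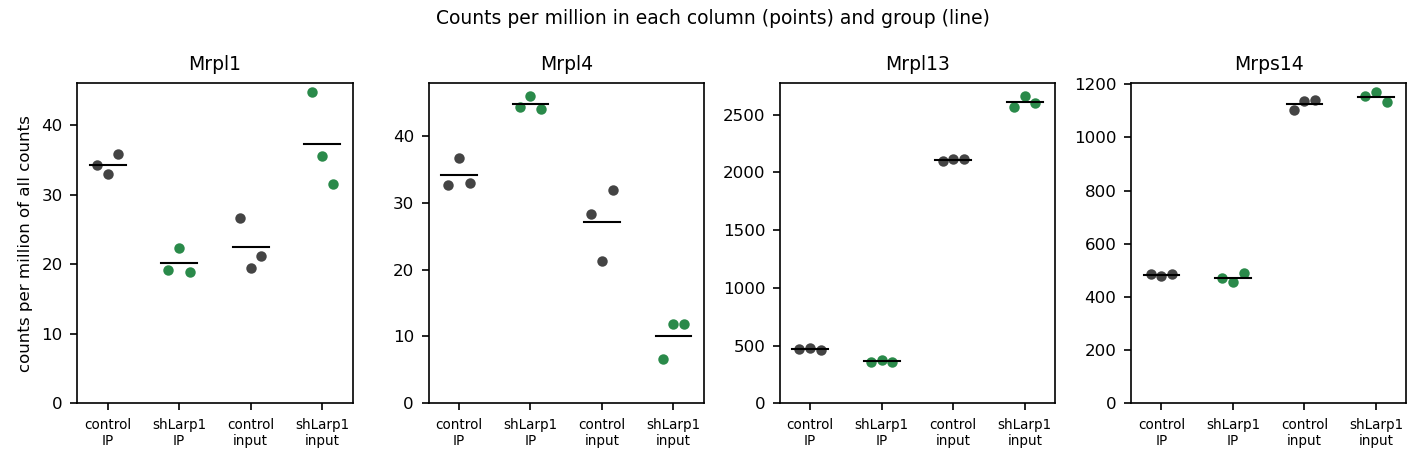
CPM, counts scaled to the column's total (y axis) in the 4 groups (x axis) for Mrpl1, Mrpl4, Mrpl13 and Mrps14; points are the 3 columns of a group and lines the group value. Mrpl1 is lower with shLarp1 in the IP and higher in the input, Mrpl4 shows the opposite order, and Mrpl13 and Mrps14 are above their IP values in both inputs.

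Set against input, the mRNAs of the mitochondrial ribosome had lower IP-to-input ratios than most genes tested. The set of genes tested limits this comparison. In the control IP 10084 genes had at least 30 counts, against 2131 in the control input, so a gene could pass the filter through the IP alone. Of the 8773 genes tested 1380 had a control group at 0. Such selection can raise the median of all genes. With the control virus 2 of 77 were called higher and 8 lower in IP than in input, against 35.5 percent of all genes, 23 percent higher and 12.5 percent lower. The median log2 ratio of IP to input was -0.30, against 0.71 for all genes tested (0.65 with genes at 0 at their bound), and 8 of 77 members lay above the median of all genes. With shLarp1 2 were called higher and 10 lower, against 39 percent of all genes, 25.9 percent higher and 13.1 percent lower, with medians of 0.18 and 0.93 (0.84 at the bound) and 11 of 77 above. The difference between the members' median and that of all genes was -1.01 and -0.75. It cannot depend on the scaling, which shifts every gene alike. The sign of the members' own summed ratio, -0.90 and -1.13, turned to 0.08 and 0.21 with total counts. The direction of the calls followed the scaling. With total counts 28 members were higher and 5 lower with the control virus (51.9 and 7.42 percent of all genes), and 63 were higher and 5 lower with shLarp1 (70.5 and 8.53 percent). With upper-quartile factors 0 were higher and 28 lower (14.7 and 18.1 percent of all genes), and 0 were higher and 20 lower with shLarp1 (15.1 and 17 percent). Among genes with at least 300 counts the medians were -0.35 for 69 members against 0.49 for all with the control virus, and 0.05 against 0.80 with shLarp1. That total is over all 4 groups, and 656 of these 4656 genes had 0 counts in the control input, so the same limit holds.

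The genes called lower with the control virus were Mrpl9, Mrpl13, Mrpl15, Mrpl23, Mrpl33, Mrpl42, Mrps6 and Mrps14. All but Mrpl42 have bacterial homologs. Mrpl13 had 1463, 1511 and 1456 counts in the control IP, 1185, 1193 and 1194 in the control input, and a log2 ratio of -3.13 (-3.19 to -3.06) at depths that differ. Mrps14, a protein of the head of the small subunit, had 1516, 1499 and 1517 counts in the control IP and 623, 641 and 645 in the control input, a log2 ratio of -2.19 (-2.27 to -2.11). Relative to the column totals, both were lower in every IP column than in every input column.

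Mrpl15 stood at -2.86 (-3.04 to -2.68), Mrpl23, at the mouth of the exit tunnel, at -2.73 (-2.94 to -2.52), and Mrpl9 at -2.63 (-2.80 to -2.46). Mrpl42 at -0.96 (-1.12 to -0.79), Mrpl33 at -0.79 (-0.88 to -0.71) and Mrps6 at -0.74 (-0.88 to -0.60) were far closer to 0. The calls of Mrpl33, Mrpl42 and Mrps6 were lost with total counts (0.19, 0.02 and 0.24), and that of Mrps6 also with DESeq2 size factors (-0.64). With shLarp1 the called genes included all of these but Mrps6, with Mrpl1 at -2.22 (-2.59 to -1.83), Mrps26 at -1.10 (-1.23 to -0.97) and Mrpl52 at -0.81 (-0.92 to -0.71) in addition.

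The genes called higher rested on few input counts. Mrps30 had 95 counts in the control IP and 1 in the control input, a log2 ratio of 3.13 (0.62 to 8.45). Mrps22 had 265 and 8, a ratio of 1.61 (0.61 to 2.84) with the control virus and 2.32 (0.94 to 4.21) with shLarp1, and Mrpl19 had 163 and 3 with shLarp1, a ratio of 2.37 (0.80 to 4.67). With upper-quartile factors none of these calls remained, and each was also lost when single columns were left out. Next in order with the control virus, not called, were Mrps10 at 2.07 (0.49 to 4.36) and Mrpl37 at 1.25 (-0.01 to 2.90).

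**Figure D5:**
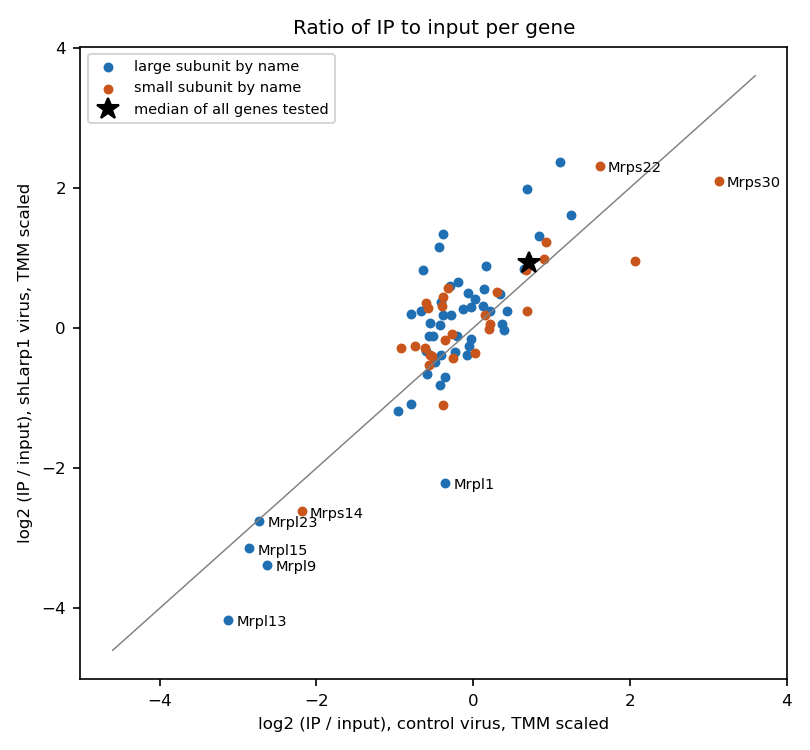
Log2 ratio of IP to input with the shLarp1 virus (y axis) against the control virus (x axis) for the 77 tested genes, coloured by subunit; the line marks equal ratios and the star the median of all genes tested. Mrpl13, Mrpl9, Mrpl15, Mrpl23 and Mrps14 lie apart from the other genes at the lower left, and Mrpl1 lies far below the line.

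Mrpl13, Mrpl9, Mrpl15, Mrpl23 and Mrps14 stood apart by their log2 IP-to-input ratio averaged over the viruses, which was below -2 (-3.65, -3.0, -3.0, -2.74 and -2.40). The next genes were Mrpl1 at -1.28 and Mrpl42 at -1.07, and the limit of -2 was chosen with these values known. In the series 752 tested genes met that limit. They held 55.9% of the control input counts and 65.1% of the shLarp1 input counts, but 10.8% and 8.54% of the IP counts. The 5 members held 6639 of the members' 16780 counts in the control input and 10225 of 21687 in the shLarp1 input. Without them the summed ratio of the other members was -0.03 in the IP, -0.02 in the input, and -0.35 and -0.36 for IP over input with the control and the shLarp1 virus. The log2 ratio of shLarp1 to control over the 752 genes had a median of -0.48 in the IP and 0.43 in the input.

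The large-subunit genes had a lower summed IP-to-input ratio than the small-subunit genes, by -0.38 with the control virus and -0.55 with shLarp1. The sign depended on which genes were counted. Without Mrpl13 alone the differences turned to 0.08 (0.02 to 0.13) and 0.12 (0.07 to 0.17), whereas without all 5 genes with a low ratio, Mrps14 of the small subunit among them, they were smaller but kept their direction, at -0.12 (-0.18 to -0.06) and -0.14 (-0.19 to -0.08). The difference of the medians was -0.00 and 0.06. Members with bacterial homologs had a median of -0.35 and members found only in mitochondria of -0.07 with the control virus.

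The virus effect in the IP was set against that in the input as a difference of log2 ratios, which uses all 4 groups. Of 77 members 1 was called higher and 2 lower, against 6.96 percent of all genes, 1.38 percent higher and 5.57 percent lower. Mrpl1 was at -1.85 (-2.46 to -1.24) and Mrpl13 at -1.04 (-1.13 to -0.95), both lower under every scaling tried. Of the 752 genes with a low IP-to-input ratio, Mrpl13 among them, 356 were called lower, with a median of -0.91. Mrpl4 was called higher at 1.45 (0.70 to 2.19): it had 102, 115 and 103 counts in the control IP and 141, 146 and 140 in the shLarp1 IP, beside the lower input counts given above. Its call was lost with DESeq2 size factors (1.24), with TMM referred to a control IP column (1.28), and without control input replicate 1 (1.24) or 3 (1.15) or shLarp1 input replicate 1 (1.03), 2 (1.38) or 3 (1.38). The other extremes, not called, were Mrpl45 at 1.64 (0.16 to 3.12), Mrpl44 at 1.54 (0.34 to 2.74) and Mrpl3 at 1.24 (-0.82 to 3.3) on one side, and Mrps10 at -0.99 (-2.85 to 0.87) and Mrps30 at -0.77 (-3.72 to 2.18) on the other. Large minus small was -0.17. Without Mrpl13 it was 0.05 (-0.03 to 0.12), and without the 5 genes with a low ratio -0.01 (-0.10 to 0.07).

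Tests that treat the columns as replicates were run as alternatives. After adjustment over all genes, edgeR's quasi-likelihood test passed 13 members in the IP, where 27.7 percent of all genes passed, 39 for IP over input with the control virus (55.4 percent), 39 with shLarp1 (61.2 percent) and 14 for the difference of effects (11.1 percent). With the replicate number as a block the members passing were 13 in the IP (26.3 percent of all genes), 14 in the input (8.59 percent), 38 and 38 for IP over input (54.4 and 60.1 percent) and 14 for the difference of effects (10.9 percent). DESeq2 passed 11 in the IP (21.4 percent) and 32 and 31 for IP over input (52.3 and 52.9 percent). For the difference of effects its adjusted p covered 6220 genes, 74 members among them, and 18 members and 15.7 percent of those genes passed. Of these 18 members 4 were higher and 14 lower, whereas edgeR's 14 were 7 higher and 7 lower. With each of these tests the members' share was below that of all genes in the IP and for IP over input. It was above that share in the input and for the difference of effects. The members are better counted, with 69 of 77 at 300 counts or more, against 4656 of the 8773 genes tested.

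Some proteins of the mitochondrial ribosome carry other names. Of 6 such genes 0 were called in the IP or in the input, against 5.12 and 1.19 percent of all genes, with a median of -0.04 in the IP. For IP over input with the control virus 1 was higher and 1 lower, against 23 and 12.5 percent of all genes. With shLarp1 2 were higher (Dap3 and Gadd45gip1) and 1 lower (Ptcd3), against 25.9 and 13.1 percent. Dap3, a small-subunit GTP-binding protein, was higher in IP than in input with the control virus at 1.6 (0.60 to 2.83). Ptcd3, a small-subunit protein with pentatricopeptide repeats, had 130 counts in the control IP, 80 in the shLarp1 IP, 332 in the control input and 495 in the shLarp1 input. With the control virus it was lower in IP than in input at -4.79 (-5.09 to -4.49). Its IP ratio of shLarp1 to control, -0.85 (-1.27 to -0.44), was not called. For the difference of effects it was the 1 of 6 called, lower at -1.23 (-1.68 to -0.78), against 5.57 percent of all genes.

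Genes for building the mitochondrial ribosome included 2 lower of 13 tested in the IP, where 4.4 percent of all genes were lower. Noa1, a GTPase needed for the small subunit, had 227 counts with the control virus and 135 with shLarp1, a log2 ratio of -0.90 (-1.22 to -0.59). Noa1 is 1 of the 752 genes with a low IP-to-input ratio, at -3.19 with the control virus and -4.44 with shLarp1. The median of those genes in the IP was -0.48. Mtg2, the most counted gene of this list, also had low ratios, at -4.53 and -5.53. It had 4702 and 3799 counts in the IP, a log2 ratio of -0.46 (-0.52 to -0.40) that was not called. Mterf4, which brings an rRNA methyltransferase to the large subunit, had 56 and 22, a ratio of -1.5 (-2.28 to -0.77). In the input 1 of 13 was called lower, against 1.01 percent of all genes. This was Ngrn, which is needed for the large-subunit rRNA and fell from 8 counts to 0. Its interval reached up to a log2 ratio of -0.97, and setting the group at 3 counts makes it 3.06-fold lower. For the difference of effects 1 of 13 was higher (Ngrn) and 2 lower (Noa1 and Mtg2), against 1.38 and 5.57 percent of all genes. Of 9 translation factors and 7 genes of mitochondrial transcription and RNA stability tested, 0 were called in the IP or in the input. Among all genes 5.12 and 1.19 percent were called there. The most counted were Tufm, the elongation factor that brings tRNAs to the ribosome, at -0.20 (-0.43 to 0.04) in the IP, and Slirp, which stabilises mitochondrial mRNAs, at -0.02 (-0.06 to 0.02).

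The rRNAs of the mitochondrial ribosome are mt-Rnr1 and mt-Rnr2. In the IP mt-Rnr2 fell from 8606 to 5861 counts, a log2 ratio of -0.71 (-0.75 to -0.66), and mt-Rnr1 had 3220 and 2359 counts, a ratio of -0.60 (-0.68 to -0.52) that did not meet the size rule. Both are listed at 0 in all input columns, whereas the 13 mRNAs of the mitochondrial genome had 10275 counts in the control input. The source of this difference between IP and input was not tested, and the IP-to-input ratios are to be read with it. Of the 13 mRNAs that this ribosome translates, 5 (mt-Atp6, mt-Co1, mt-Co2, mt-Co3 and mt-Nd1) were lower in the IP, against 4.4 percent of all genes, with a median of -0.67 over the 13, beside the members' median of -0.01. In the input 0 of the 13 were called, against 1.19 percent of all genes, and their median was 0.29, with 11 above 0. For the difference of effects 8 of the 13 were lower, against 5.57 percent of all genes. The 752 genes with a low IP-to-input ratio had medians of -0.48 in the IP and 0.43 in the input. The tagged cytosolic ribosomes do not translate these 13 mRNAs, and a cause of their values was not tested. The nuclear partners of those mRNAs, 77 oxidative phosphorylation genes, had 0 called in the IP, against 5.12 percent of all genes, and a median of 0.02. In the input 3 of 76 were lower (Atp5f1, Ndufv1 and Sdhd), against 1.01 percent of all genes. The cytosolic ribosomal protein genes had 0 of 46 large-subunit and 0 of 32 small-subunit genes called in the IP, against the same 5.12 percent. Their medians were -0.15 and -0.17. In the input 3 large-subunit genes (Rpl10, Rpl3 and Rplp0) and 1 small-subunit gene (Rps12) were lower, against the same 1.01 percent. For IP over input with the control virus the medians were -0.62 and -0.76 for the cytosolic ribosomal proteins, 0.07 for oxidative phosphorylation and -1.83 for the mitochondrial mRNAs. The members' -0.30 lies between the medians of the cytosolic ribosome and of nuclear oxidative phosphorylation.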

How the data were processed

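RNA of 4 groups was sequenced with a nanopore cDNA-PCR barcoding kit, per the labels. The authors deposited whole-number counts per gene without normalization. For mapping and counting, minimap2, Salmon, GRCm39 and mm39 appear in the submitters' processing notes. The sources used here give no tool versions, filters or strand setting, and overlapping or antisense genes cannot be told apart in these counts. A symbol was matched to 13711 genes and not to 1680.

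Counts were summed per group, filtered with filterByExpr (minimum count 10) and scaled by TMM in edgeR 4.0.16 (R 4.3.3). Intervals are exact (Clopper-Pearson), and for the difference of effects a normal approximation with 0.5 counts added. Alternatives were other scalings, filters, size rules, left-out columns, edgeR's quasi-likelihood test and DESeq2 1.42.0 on the 12 columns. In data simulated with counting noise alone, the intervals covered known changes when the true scaling was used. TMM left a small offset between input groups, so this coverage does not carry over to the TMM-scaled intervals. The simulation holds no variation between libraries or cultures and cannot speak to it.

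The genes, lists and rules were chosen with earlier results of these data known. Named are the 8 most counted members, all called members, the 4 highest and lowest per comparison with at least 30 counts, and called or leading genes of the other lists. The values of the other members are given as ranges and counts.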

Additional observations from a re-analysis of the deposited data

Results flagged for a closer look

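For 3 of the 77 genes (3.9%) the virus effect in the IP differed from that in the input by more than the counting error and 1.5-fold, which was so for 6.96 percent of all genes. The difference of log2 ratios, IP minus input, was -1.85 for Mrpl1, 1.45 for Mrpl4 and -1.04 for Mrpl13. Mrpl13 is 1 of the 752 genes with a low IP-to-input ratio, of which 356 were called lower in this difference, with a median of -0.91. Its value is therefore not unusual among those genes. The calls of Mrpl1 and Mrpl13 held under the 4 other scalings and the 12 left-out columns, whereas that of Mrpl4 was lost under 2 scalings and without 5 of the single columns. With 1 sample a group the difference has no replicate check.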

How the results depend on the processing

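Intervals cover counting error only, and with 1 sample a group no alternative replaces replicates. Input depth limits single genes, and a cause was not tested for any change below. Of the alternative values, 167 stayed within the reported 95% interval (counts within 1.5 times) and 118 moved beyond it.

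For upper-quartile factors, total counts and TMM referred to a control IP column, in this order, the members called in the IP numbered 0, 0 and 0 and the summed ratio was 0.070, 0.072 and 0.014. In the input, DESeq2 size factors and the same 3 gave 2, 1, 2 and 2 called (2.85, 2.11, 2.78 and 3.2 percent of all genes) and sums of 0.38, 0.32, -0.060 and 0.41. For IP over input with the control virus, upper-quartile factors gave 28 called (0 higher, 28 lower; 32.9 percent of all genes called) and total counts 33 (28 higher, 5 lower; 59.3 percent), with sums of -1.39 and 0.077, and DESeq2 size factors a sum of -0.80. With shLarp1 they gave 20 (0 higher, 20 lower; 32.1 percent) and 68 called (63 higher, 5 lower; 79 percent), and sums of -1.64, 0.21 and -1.23, and TMM referred to a control IP column -1.31. For the difference of effects total counts gave 9 called (7 higher, 2 lower; 7.1 percent of all genes), and the sums were -0.43 with DESeq2 size factors, 0.13 with total counts and -0.39 with the other TMM reference.

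A 2-fold size rule gave 0 called in the IP, 5 for IP over input with the control virus and 1 for the difference of effects (0.97, 25.3 and 1.57 percent of all genes). Intervals wholly beyond 1.0-fold gave 25 in the IP, 24 in the input, 42 and 42 for IP over input and 26 for the difference of effects, which is 32.5, 31.2, 54.5, 54.5 and 33.8 percent of the members against 43, 18.2, 57.6, 62.7 and 21.6 percent of all genes. On the 12 columns edgeR passed 13, 14, 39, 39 and 14 members and DESeq2 11, 16, 32, 31 and 18, in the same order of comparisons. In the input and for the difference of effects these tests differed in direction, as given above. With the replicate block edgeR passed 13, 14, 38, 38 and 14, and the columns share only a number.

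In that order, large minus small by medians was 0.044, -0.061, -0.00037, 0.058 and 0.10. Placing Mrps30 and Mrps18a in the large subunit gave -0.49 with shLarp1. The following were added after seeing the data. Without Mrpl13 large minus small was 0.022, -0.025, 0.076, 0.12 and 0.046. Without the 5 genes with a low ratio of IP to input it was 0.023 in the input, -0.12 and -0.14 for IP over input and -0.013 for the difference of effects, and the sums were -0.032, -0.021, -0.35, -0.36 and -0.012.

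Leaving out single columns gave 0 to 1, 0 to 2, 8 to 11, 12 to 15 and 3 to 5 members called. The sums ran from -0.069 to 0.013, from 0.17 to 0.43, from -0.99 to -0.89, from -1.39 to -1.13 and from -0.42 to -0.22. Large minus small ran from -0.020 to 0.0060, from 0.13 to 0.18, from -0.40 to -0.36, from -0.57 to -0.53 and from -0.19 to -0.14.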
